A study of Mus musculus with 6 samples.

Results

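The G1 cyclins and cell cycle inhibitors described here are 10 of the 54532 genes measured in mouse heart RNA: the D cyclins Ccnd1, Ccnd2 and Ccnd3, the kinase gene Cdk6, the CIP/KIP inhibitors Cdkn1a and Cdkn1b, and the INK4 inhibitors Cdkn2a, Cdkn2b, Cdkn2c and Cdkn2d. They were taken by gene symbol with no cut on their values, though with earlier results of these data known. Hearts at day 4 came from the offspring of mothers given streptozotocin (STZ) by intraperitoneal injection while pregnant (n = 3), and from the offspring of mothers given citric acid by the same route (control, n = 3). STZ is a toxin of the insulin-producing beta cell and serves as a model of diabetes in pregnancy. All animals were wild type and of the ICR stock, which is outbred, and the tissue was given as whole heart. Whether littermates were used within a group is not stated, and p-values therefore measure only the spread between these 6 samples. That spread may be technical, except that control 3 differed from the other libraries in Xist and Y-linked genes, as given below.

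D cyclins bind and activate the kinases CDK4 and CDK6, which phosphorylate the retinoblastoma protein and so release E2F transcription factors for entry into S phase. INK4 proteins bind CDK4 and CDK6 and keep D cyclins from activating them, whereas CIP/KIP proteins bind cyclin and kinase complexes, mainly those of CDK2. In the mouse heart, cardiomyocytes still divide at birth and leave the cell cycle during the first weeks of life, a period in which D cyclins fall and inhibitors are known to accumulate.

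Values are FPKM, which are read counts per kilobase of gene scaled to a total that the authors set for each library. They correspond to 16707268 to 18082599 whole reads per library. Library control 2 stood apart from the rest: its median correlation with the other libraries over all genes tested was 0.923, against 0.978 to 0.979 for the others, and its atrial markers summed to 6385 FPKM, against 62.0 to 146 FPKM elsewhere. Its cardiomyocyte markers, 10 of 10 of which were lower than in any other library, summed to 8059 FPKM, while the other libraries had 15853 to 19048 FPKM. Control 3 had Xist at 70.6 FPKM, against 0 to 0.0541 FPKM in the others, and was the 1 library with the 4 Y-linked genes looked at listed at 0. In bulk tissue, fewer cells of a type and less RNA per cell cannot be told apart. Whether all libraries held the same parts of the heart was not tested.

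Among the 8 genes that could be tested across the table, no difference between STZ and control hearts passed the threshold, and Cdkn2a and Cdkn2b were too low for that test. Of the 8, 0 passed limma at a Benjamini-Hochberg (BH) adjusted p under 0.05, against 3 of 12431 genes (0.0241%) in the whole table tested, and 0 had an unadjusted p under 0.05, against 2.59% of all genes. Voom on the recovered reads likewise passed 0 of 8, with 0 at an unadjusted p under 0.05. A gene was tested when at least 3 samples held 1 FPKM or more, and the 8 reached that level in all 6 libraries. The BH-adjusted p of the 8 ran from 0.922 to 0.979 (limma). Fold changes were positive for 7 of the 8, with a median of 0.09, while 57.7% of all genes were positive with a median of 0.03. The number positive was 5 without control 1 (58.3% of all genes), 8 without control 2 (49.4% of all genes), and 4 when values were scaled to the recovered read totals (44.1% of all genes).

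**Figure D1:**
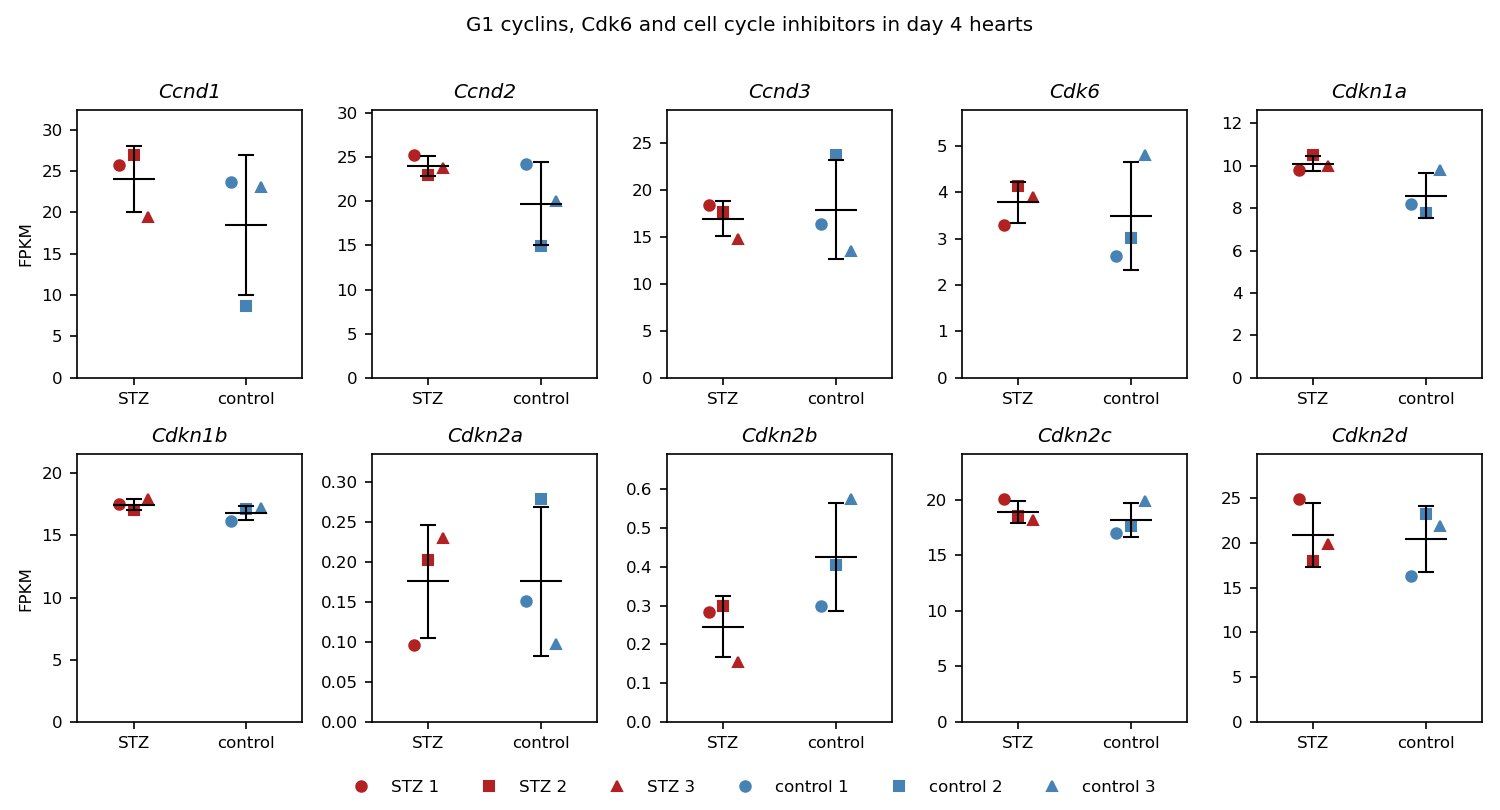
FPKM of the 10 genes in each heart library at day 4, STZ at left and control at right in each panel, with marker shape giving the replicate number and black bars the mean ± SD of 3 samples. The STZ points of Cdkn1a lie at 9.83 to 10.5 FPKM, just above the highest control at 9.78 FPKM, and in the other panels the groups overlap.

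Cyclin D1, the product of Ccnd1 (ENSMUSG00000070348, GRCm38 chromosome 7, 144929931 to 144939925, minus strand), links growth factor signals to the cell cycle. Ccnd1 was at 25.7, 26.9 and 19.4 FPKM in STZ hearts, against 23.7, 8.74 and 23.0 FPKM in control hearts. Control 2 alone was low, and the remaining controls lay within the STZ range. The means were 24.0 ± 4.02 FPKM in STZ and 18.5 ± 8.44 FPKM in control hearts (SD, n = 3 each). The log2 fold change of Ccnd1, STZ over control on the log2(FPKM + 1) scale, was 0.47 with SE 0.365 (adjusted p = 0.922 by limma), with a 95% interval from -0.40 to 1.33. Without control 2 it was 0.03, and without control 1 it was 0.70, so its size rested on control 2.

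Cyclin D2, from Ccnd2 (chromosome 6, 127125162 to 127152193, minus strand), is known to drive cardiomyocyte cycling when overexpressed in mice. Its values were 25.3, 23.0 and 23.7 FPKM in STZ hearts and 24.2, 14.9 and 20.1 FPKM in control hearts. The STZ libraries were close together (1.15 FPKM SD), and the control libraries spread over a wider range (4.68 FPKM SD). Control 2 was again the lowest of the 6, and control 1 lay inside the STZ range. The log2 fold change of Ccnd2 was 0.29 with SE 0.177 (adjusted p = 0.922 by limma, interval -0.13 to 0.71), 0.12 without control 2 and 0.45 without control 1.

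Cyclin D3, from Ccnd3 (chromosome 17, 47505051 to 47599691, plus strand), showed the opposite deviation in control 2. Ccnd3 stood at 18.4, 17.6 and 14.8 FPKM in STZ hearts and at 16.4, 23.7 and 13.5 FPKM in control hearts, so that control 2 was the highest library here. Its log2 fold change was -0.04 with SE 0.206 (adjusted p = 0.975 by limma, interval -0.53 to 0.44) and turned to 0.17 without control 2. Of the 3 D cyclin genes, Ccnd3 has the most annotated transcripts in GENCODE M21, 21 of which 16 are coding, and 2 start sites in RefSeq. The 250 bases before each start are shown. No such windows were available for Ccnd1 and Ccnd2, the D cyclins that Ccnd3 went against in control 2. Capitals mark GC boxes (GGGCGG), the core of the cyclic AMP response element (TGACG) and CCAAT boxes (CCAAT), each searched on both strands.
Ccnd3 start 1, chr17:47504801-47505050, plus strand (RefSeq, GRCm38.p6): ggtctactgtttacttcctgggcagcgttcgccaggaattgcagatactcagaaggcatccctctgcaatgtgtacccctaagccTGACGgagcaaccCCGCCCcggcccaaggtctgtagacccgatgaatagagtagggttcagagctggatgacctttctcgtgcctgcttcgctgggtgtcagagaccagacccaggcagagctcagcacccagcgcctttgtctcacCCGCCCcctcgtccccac
Ccnd3 start 2, chr17:47593217-47593466, plus strand (RefSeq, GRCm38.p6): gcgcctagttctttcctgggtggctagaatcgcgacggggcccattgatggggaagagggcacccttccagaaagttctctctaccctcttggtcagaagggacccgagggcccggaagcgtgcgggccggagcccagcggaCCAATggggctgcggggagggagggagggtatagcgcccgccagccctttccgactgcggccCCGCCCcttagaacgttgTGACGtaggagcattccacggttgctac
The first window holds 2 GC boxes and 1 response element core. The second holds 1 GC box, 1 core and 1 CCAAT box. Among 32536 windows of the same length in the RefSeq table, 33.0% hold a GC box, 17.9% the core and 33.8% a CCAAT box, so these matches are common ones. The full response element TGACGTCA, which contains the core, was also searched (1.56% of windows), as were the TATA box TATAAA (12.3%), the AP-1 motif TGANTCA (6.73%), the E-box CACGTG (6.04%) and the E2F motifs TTTCCCGC (0.901%) and TTTGGCGC (0.421%), and none of these letters is in the windows printed here. The gene-level values do not say which start the reads came from.

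The make-up of D cyclin mRNA was nearly even among the STZ hearts. Ccnd1 made up 37.0%, 39.9% and 33.5% of the summed D cyclin FPKM in STZ hearts, Ccnd2 36.5%, 34.0% and 41.0%, and Ccnd3 26.5%, 26.1% and 25.5%. In control hearts Ccnd1 made up 36.8%, 18.5% and 40.7%, Ccnd2 37.7%, 31.4% and 35.4%, and Ccnd3 25.5%, 50.1% and 23.9%. The make-up of controls 1 and 3 thus resembled that of STZ hearts, and in control 2 Ccnd3 had the largest share. FPKM divide reads by gene length, so the shares within a library depend on the lengths used. These were 4709 bases for Ccnd1, 9409 for Ccnd2 and 8775 for Ccnd3. In recovered reads, Ccnd1 had the fewest of the 3 genes in every library, and Ccnd3 the most in control 2 (4451 reads). The share of Ccnd3 differed by -7.13 percentage points, STZ minus control (exact two-sided permutation test, p = 0.9), and by 1.34 points without control 2. For Ccnd1 the share differed by 4.83 points (exact p = 0.8), and by -1.93 points without control 2. The summed D cyclin level was 64.9 ± 6.11 FPKM in STZ and 56.1 ± 8.50 FPKM in control hearts (SD, n = 3 each; exact permutation p = 0.2, or 0.6 after BH adjustment over the 6 shares and sums tested). Its difference of 8.85 FPKM was 4.47 FPKM without control 2. The smallest p that 3 against 3 samples allow in this test is 0.1.

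**Figure D2:**
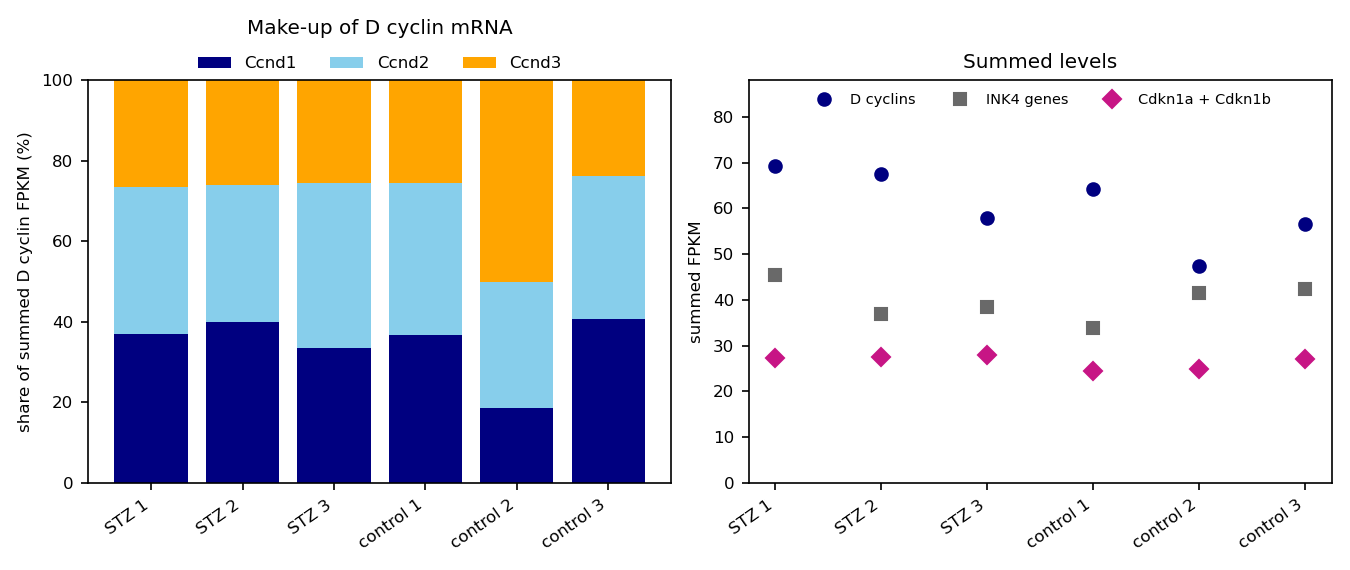
Left, share of each D cyclin in their summed FPKM (percent) per library. Right, summed FPKM per library of the 3 D cyclins, the 4 INK4 genes, and Cdkn1a with Cdkn1b. Control 2 has the highest Ccnd3 share, 50.1%, and the lowest D cyclin sum, 47.3 FPKM.

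In control 2, Ccnd1 and Ccnd2 were the lowest and Ccnd3 the highest of all libraries. Marker genes of several cell types also stood apart in that library. Atrial markers were higher in control 2 than in any other library at 9 of 9 genes, fibroblast markers at 9 of 10 (1605 FPKM summed, against 781 to 986 FPKM elsewhere), macrophage markers at 9 of 10 (113 against 47.4 to 59.8 FPKM) and erythroid markers at 7 of 7 in the table (14548 against 2229 to 4927 FPKM). Epicardial and mesothelial markers were higher at 7 of 9 (79.8 against 21.9 to 47.4 FPKM). Endothelial markers were lower in control 2 than in any other library at 5 of 10 and higher at 1 (379 against 418 to 479 FPKM). Smooth muscle and pericyte markers were lower there at 5 of 10 and higher at 3. By group, the summed atrial markers were 62.0 to 146 FPKM in STZ and 64.1 to 6385 FPKM in control hearts, and the cardiomyocyte markers were 16482 to 17904 FPKM in STZ and 8059 to 19048 FPKM in control hearts. The fibroblast sums did not overlap, at 781 to 826 FPKM in STZ and 854 to 1605 FPKM in control hearts. Control 2 was the highest, and controls 1 and 3 were at 854 and 986 FPKM. This sum was not tested, and 3.62% of all single genes tested had every STZ value below every control value. Of the atrial, cardiomyocyte and fibroblast markers, only Sln, an atrial gene, was listed at 0 in any library. The part of these cells in the D cyclin values was not tested. Without control 2 the differences of Ccnd1 and Ccnd2 were 0.03 and 0.12, as given above.

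**Figure D3:**
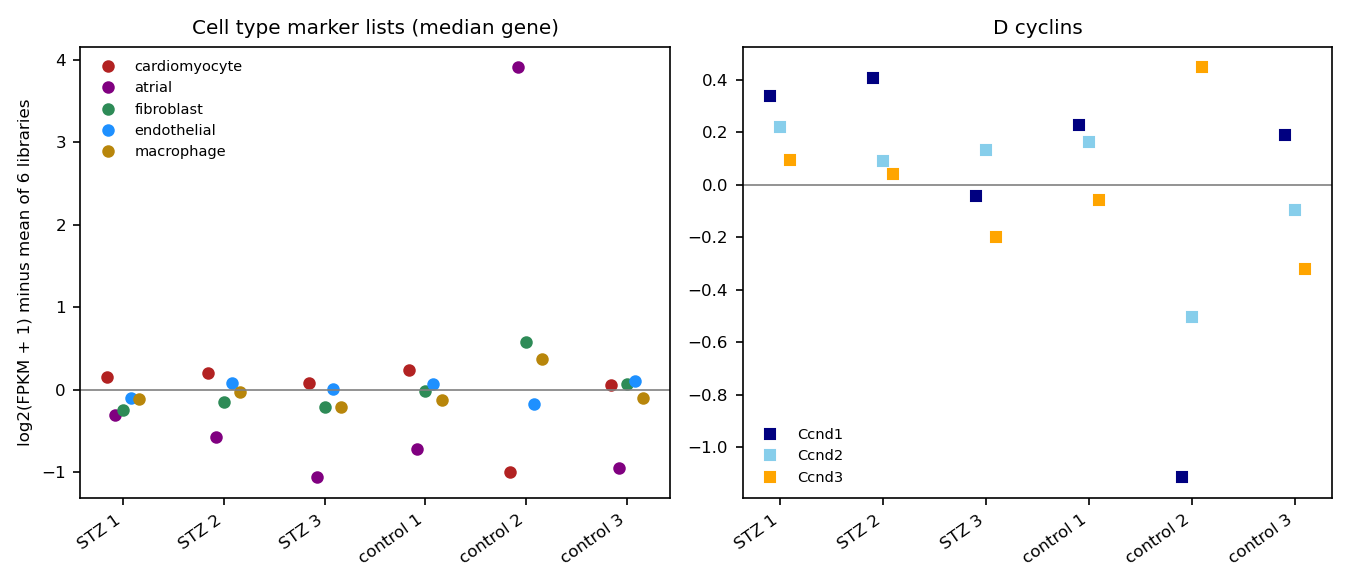
Deviation from the mean of the 6 libraries in log2(FPKM + 1), for the median gene of 5 cell type marker lists (left) and for the D cyclins (right). In control 2 the atrial markers are up by 3.91 and the cardiomyocyte markers are at -0.99, and there Ccnd1 and Ccnd2 lie below and Ccnd3 above their means.

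Cdk6, the kinase partner of D cyclins encoded on chromosome 5 (3341485 to 3531008, plus strand), had a lower FPKM than its relative Cdk4. Cdk6 was at 3.30, 4.14 and 3.91 FPKM in STZ hearts and at 2.63, 3.02 and 4.81 FPKM in control hearts. The highest and the lowest value were both controls, and the highest belonged to control 3, the library with high Xist. The log2 fold change of Cdk6 was 0.12 with SE 0.19 (adjusted p = 0.926 by limma, interval -0.33 to 0.57). It was 0.32 without control 3, a fit that held only libraries with Y-linked reads, and -0.02 without control 1. Cdk4 stood at 42.1 ± 2.06 FPKM in STZ and 42.6 ± 4.76 FPKM in control hearts. Per library, the ratio of Cdk4 to Cdk6 in FPKM was 13.4, 10.1 and 10.3 in STZ hearts and 15.5, 15.9 and 8.11 in control hearts. This ratio depends on the gene lengths used, 3249 bases for Cdk4 and 13989 bases for Cdk6.

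Cdkn1a encodes p21, the CIP/KIP inhibitor induced by the tumour suppressor p53 among other signals. It lies at chromosome 17, 29090976 to 29100727, on the plus strand (ENSMUSG00000023067). Its 2 RefSeq start sites are shown with the 250 bases before each, because Cdkn1a was the 1 member whose groups did not overlap. Capitals mark p53 element repeats (10 bases each) in the first window and GC boxes (GGGCGG) in the second, on both strands.
Cdkn1a start 1, chr17:29090729-29090978, plus strand (RefSeq, GRCm38.p6): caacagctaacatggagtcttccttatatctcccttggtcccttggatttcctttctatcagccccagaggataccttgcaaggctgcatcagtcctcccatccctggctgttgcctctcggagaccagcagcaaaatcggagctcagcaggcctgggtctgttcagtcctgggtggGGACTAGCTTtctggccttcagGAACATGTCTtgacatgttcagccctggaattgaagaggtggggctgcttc
Cdkn1a start 2, chr17:29093519-29093768, plus strand (RefSeq, GRCm38.p6): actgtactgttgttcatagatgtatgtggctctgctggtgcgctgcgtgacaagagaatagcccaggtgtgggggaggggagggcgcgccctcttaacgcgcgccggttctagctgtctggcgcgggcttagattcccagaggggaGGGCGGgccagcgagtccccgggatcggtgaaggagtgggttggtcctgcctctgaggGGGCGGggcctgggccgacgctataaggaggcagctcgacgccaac
The first window holds 2 matches to the p53 element repeat, from 73 and from 51 bases before the start, and 7.12% of all 32536 windows hold at least 1. The second holds 2 GC boxes. A match is a description of the letters and no measure of binding.

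Cdkn1a was at 9.83, 10.5 and 9.98 FPKM in STZ hearts, against 8.22, 7.79 and 9.78 FPKM in control hearts. All 3 STZ values were above all 3 control values, as for 4.92% of all genes tested, where 8.54% did not overlap in either direction. The gap between the lowest STZ and the highest control value was 0.0409 FPKM. Those values rest on 621 reads in STZ 1 and 609 reads in control 3, with exact 95% Poisson intervals of 9.07 to 10.6 and 9.02 to 10.6 FPKM that cover counting error only. The gap is thus smaller than counting error. It was 0.0457 FPKM with values scaled to the recovered read totals, where the groups stayed apart, and -0.0082 FPKM under scaling by the trimmed mean of M values (TMM), where they overlapped. The means were 10.1 ± 0.363 FPKM in STZ and 8.60 ± 1.05 FPKM in control hearts (SD, n = 3 each), a ratio of 1.18. The log2 fold change of Cdkn1a was 0.22 with SE 0.112 (adjusted p = 0.922 by limma, unadjusted p = 0.0954, interval -0.05 to 0.48). Over the 20 assignments of samples the exact permutation p, two-sided, was 0.1, the smallest possible, and 0.75 after BH adjustment over the 10 members. Leaving out 1 library at a time moved the log2 fold change between 0.15 (without control 2) and 0.30 (without control 3). Control 3, the library with high Xist, gave the highest control value. The fit without it held only libraries with Y-linked reads and had an unadjusted p of 0.0326 (limma, adjusted p = 0.690). Without control 1 and without control 2 the unadjusted limma p was 0.213 and 0.157.

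Cdkn1b encodes p27, a CIP/KIP inhibitor that rises as cells leave the cycle, and was the steadiest of the 10 genes. It lies at chromosome 6, 134920401 to 134925513, plus strand. Its values were 17.5, 17.0 and 17.9 FPKM in STZ hearts and 16.2, 17.1 and 17.2 FPKM in control hearts. The groups overlapped, and the highest library was 1.11 times the lowest. The log2 fold change of Cdkn1b was 0.05 with SE 0.0932 (adjusted p = 0.931 by limma, interval -0.17 to 0.27) and -0.01 with values scaled to the recovered read totals. Together Cdkn1a and Cdkn1b summed to 27.6 ± 0.296 FPKM in STZ and 25.4 ± 1.35 FPKM in control hearts (SD, n = 3 each; exact permutation p = 0.1, BH-adjusted 0.6). That difference of 2.17 FPKM was 0.88 FPKM after scaling to the recovered read totals, where the exact p was 0.7. Cdkn1c, the remaining CIP/KIP gene and an imprinted one, ran the other way at 19.7 ± 1.495 FPKM in STZ and 24.2 ± 2.44 FPKM in control hearts. All 3 STZ values of Cdkn1c were below all controls, as for 3.62% of all genes (-0.28 on the log2 scale, SE 0.119, with an adjusted p of 0.922 by limma).

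The INK4 family was divided by level. Cdkn2c and Cdkn2d, which encode p18 and p19 and are known to be expressed during development, were among the higher of the 10 genes in FPKM. Cdkn2a and Cdkn2b, which are known to be induced by stress, ageing and growth inhibitory signals, had only a few reads. Cdkn2c (chromosome 4, 109660876 to 109667189, minus strand) was at 20.1, 18.5 and 18.1 FPKM in STZ hearts and at 17.0, 17.6 and 19.9 FPKM in control hearts. The groups overlapped, with a log2 fold change of 0.06 with SE 0.108 (adjusted p = 0.934 by limma, interval -0.20 to 0.31). Cdkn2d (chromosome 9, 21288410 to 21291407, minus strand) was at 24.9, 17.997 and 19.9 FPKM in STZ hearts and at 16.3, 23.2 and 21.9 FPKM in control hearts. Its log2 fold change was 0.03 with SE 0.179 (adjusted p = 0.979 by limma, interval -0.39 to 0.46) and turned to -0.11 without control 1 and to -0.09 without STZ 1.

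Cdkn2a (chromosome 4, 89274471 to 89294653, minus strand), whose locus encodes p16 and, in another reading frame, the p53 activator ARF, had 2, 4 and 5 reads in STZ hearts and 3, 7 and 2 reads in control hearts. These are 0.0959, 0.203 and 0.23 FPKM in STZ hearts and 0.152, 0.279 and 0.0974 FPKM in control hearts. The group sums were 11 reads in STZ (exact 95% Poisson interval 5.49 to 19.7) and 12 in control hearts (6.2 to 20.96), where the intervals cover counting error only. The gene-level values do not separate p16 from ARF. Cdkn2b, its neighbour on the same chromosome (89306299 to 89311039, minus strand) and the gene of p15, had 7, 7 and 4 reads in STZ hearts and 7, 12 and 14 reads in control hearts. The sums were 18 reads in STZ (interval 10.7 to 28.4) and 33 in control hearts (22.7 to 46.3). In FPKM, Cdkn2b averaged 0.246 ± 0.0791 in STZ and 0.426 ± 0.139 in control hearts (SD, n = 3 each; exact two-sided permutation test, p = 0.2, BH-adjusted 0.75). Neither gene reached the level for testing in any library. Summed over the 4 genes, INK4 mRNA was at 40.2 ± 4.48 FPKM in STZ and 39.2 ± 4.78 FPKM in control hearts (exact permutation p = 0.9).

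Ordered by mean level per length in STZ hearts, Ccnd1 and Ccnd2 (both 24.0 FPKM) came first, followed by Cdkn2d (20.9 FPKM), Cdkn2c (18.9 FPKM), Cdkn1b (17.5 FPKM), Ccnd3 (16.9 FPKM), Cdkn1a (10.1 FPKM), Cdk6 (3.78 FPKM), Cdkn2b (0.246 FPKM) and Cdkn2a (0.176 FPKM). From Ccnd1 to Ccnd3 each gene's range over the 3 STZ libraries overlapped that of its neighbour in this order, except that the ranges of Cdkn2c and Cdkn1b were just apart. Cdkn1a and Cdk6 each stood apart from their neighbours, while Cdkn2b and Cdkn2a overlapped. In control hearts the order began with Cdkn2d (20.5 FPKM), Ccnd2 (19.7 FPKM) and Ccnd1 (18.5 FPKM), whose ranges overlapped.

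**Figure D4:**
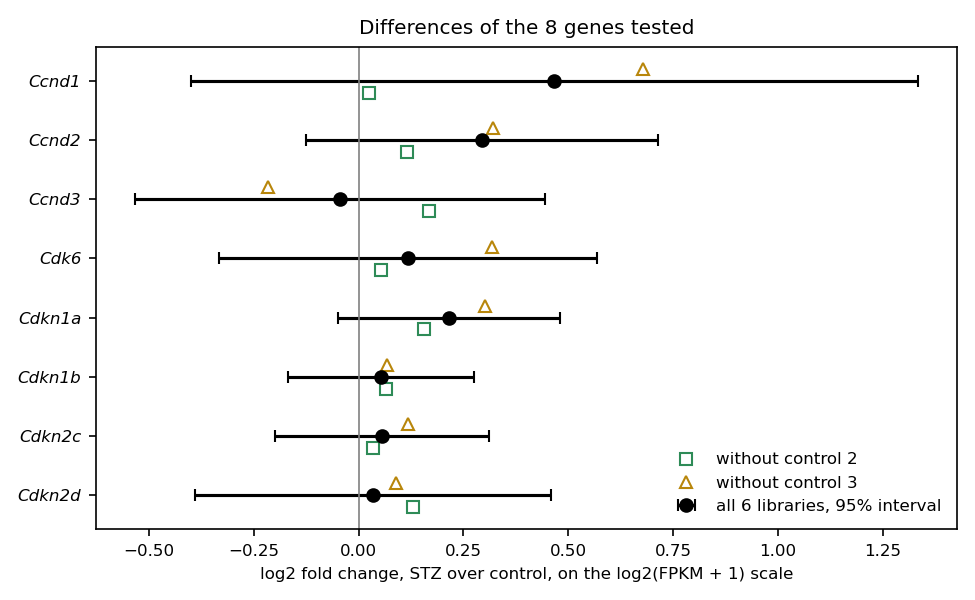
Log2 fold change, STZ over control on the log2(FPKM + 1) scale, for the 8 genes tested (filled circles, with 95% intervals from limma), and the same value without control 2 (squares) and without control 3 (triangles). Each interval includes 0, and Ccnd1 moves from 0.47 to 0.03 without control 2.

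Across the 6 libraries, Ccnd1 and Ccnd2 varied alike (Pearson r = 0.89 of log2(FPKM + 1)), but only at 0.12 over the 5 libraries other than control 2. Cdkn2c and Cdkn2d had r = 0.64 over all 6 and 0.92 without control 2. These are descriptions, since the points share library and scale. Among 6735 or 6736 other genes with a mean of at least 5 FPKM, Ccnd1 was most like Mfsd14b and Trmt2b (r = 0.998 and 0.997) and Ccnd2 most like Smyd1 and Tmem38a (0.998 and 0.995). Ccnd3 was most like Tmem160 and Chpf (0.996 and 0.992), and Cdk6 most like Tmem98 and Pcmtd2 (0.967 and 0.965). For Cdkn1a the nearest were Zfp512 and Socs7 (0.9995 and 0.993), and for Cdkn1b Topors and Klhl26 (0.972 and 0.956). Cdkn2c was nearest to Csgalnact2 and Ube2c (0.987 and 0.95), and Cdkn2d to Chchd5 and Polr2j (0.979 and 0.966). The number of these genes with r over 0.9 was 1206 for Ccnd1, 777 for Ccnd2, 265 for Ccnd3 and 118 for Cdkn1a, and it was 44 for Cdk6, 32 for Cdkn2c, 10 for Cdkn2d and 9 for Cdkn1b. The r values with these genes include control 2. The genes named for Ccnd1 and Ccnd2 were lowest in that library, and those named for Ccnd3 were highest there.

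The partners, targets and regulators of these genes were read from 6 lists, and none of their genes passed limma or voom at a BH-adjusted p under 0.05. At an unadjusted p under 0.05 limma gave 1 gene each in the lists of G1/S kinase partners (Cdkn1c) and of turnover genes (Fbxo4) and 0 in the others, against 322 of all 12431 genes (2.59%), and voom gave 1 in the first and 0 elsewhere. Among the 13 G1/S kinase partners, 6 were higher and 7 lower, with a median log2 fold change of -0.0032, and 4 were higher without control 2 (median -0.07). Mnat1, a subunit of the CDK activating kinase, was at 3.05 ± 0.132 FPKM in STZ and 3.67 ± 0.397 FPKM in control hearts, and Cdk7, its catalytic subunit, at 7.17 ± 0.637 and 8.07 ± 0.706 FPKM in STZ and control hearts.

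Of 17 pocket protein and E2F genes, 10 were higher and 7 lower (median 0.01), and 4 were higher without control 2 (median -0.06). Rb1, the retinoblastoma gene itself, was at 6.40 ± 0.48 FPKM in STZ and 5.97 ± 1.18 FPKM in control hearts, and E2f1, an activating E2F, at 13.9 ± 0.396 FPKM in STZ and 13.2 ± 2.15 FPKM in control hearts. The log2 fold changes of Rb1 and E2f1, 0.10 and 0.08, both became -0.05 without control 2. E2f2 was at 2.35, 1.97 and 3.06 FPKM in STZ hearts and at 2.18, 8.67 and 2.50 FPKM in control hearts, high in control 2 alone, with a log2 fold change of -0.47 that became 0.04 when that library was left out. Lin37 and Lin52, subunits of the DREAM complex that represses cell cycle genes in resting cells, had log2 fold changes of -0.35 (SE 0.182; -0.20 without control 2) and 0.22 (SE 0.12; 0.14 to 0.28 without 1 library).

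Turnover genes, which mark D cyclins, p21 or p27 for degradation, split into 8 higher and 7 lower of 15 (median 0.06), or 7 and 8 without control 2 (median -0.05). Fbxo4, an F-box gene reported to act on cyclin D1, was at 4.28, 4.62 and 4.56 FPKM in STZ hearts and at 5.14, 5.41 and 6.27 FPKM in control hearts (-0.26 on the log2 scale, SE 0.105, with an adjusted p of 0.922 by limma). All its STZ values were below all controls, as for 3.62% of all genes tested. Cks1b and Skp2, which together direct p27 to degradation, were at 23.7 ± 1.91 and 1.75 ± 0.169 FPKM in STZ hearts and at 29.0 ± 4.81 and 2.10 ± 0.213 FPKM in control hearts.

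Genes of the p53 response other than Cdkn1a showed no common direction, with 8 higher and 9 lower of 17 tested out of 19 listed (median -0.0083), or 5 higher without control 2 (median -0.03). Trp53, the p53 gene, was at 12.0 ± 1.10 FPKM in STZ and 11.4 ± 0.672 FPKM in control hearts, and Mdm2, a p53 target that in turn restrains it, at 11.2 ± 1.22 and 10.9 ± 1.22 FPKM in STZ and control hearts. Trp53inp1, Bax and Fas had the lowest p of the list, with log2 fold changes of -0.36 ± 0.177, -0.23 ± 0.133 and -0.34 ± 0.205 (± SE). Without control 2 those of Trp53inp1 and Bax were -0.21 and -0.13, and that of Fas ran from -0.52 to -0.13 when 1 library at a time was left out.

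S phase genes controlled by E2F had 9 of 15 positive with a median of 0.03, and 3 of 15 positive with a median of -0.04 without control 2. Rrm1, a subunit of ribonucleotide reductase, was at 16.3, 17.2 and 17.7 FPKM in STZ hearts and at 13.6, 10.9 and 15.7 FPKM in control hearts (0.34 on the log2 scale, SE 0.143, with an adjusted p of 0.922 by limma). All STZ values of Rrm1 were above all controls, as for 4.92% of all genes tested, and its log2 fold change was 0.21 without control 2. Tyms and Gins1 had negative values, -0.20 (SE 0.165; -0.03 without control 2) and -0.17 (SE 0.133; -0.29 to -0.10 without 1 library).

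Mitosis genes were positive at 12 of 12 members, with a median of 0.15, but at 6 of 12 with a median of 0.00087 without control 1, and at 12 of 12 with a median of 0.37 without control 3. Relative to the mean of the 6 libraries, the median member lay at 0.09, 0.02 and 0.12 in STZ hearts and at -0.42, -0.16 and 0.33 in controls 1 to 3, so the STZ hearts lay inside the control range. Mki67, the proliferation marker, was at 17.5, 24.0 and 27.9 FPKM in STZ hearts and at 17.0, 14.1 and 26.4 FPKM in control hearts. Ccnb1 was at 16.4 ± 1.12 FPKM in STZ and 13.2 ± 6.60 FPKM in control hearts, Ccnb2 at 28.3 ± 0.556 and 24.5 ± 7.85 FPKM in STZ and control hearts, and Cdc20 at 29.4 ± 2.88 FPKM in STZ and 24.9 ± 7.24 FPKM in control hearts. The control spread was wider than the difference in each of these genes.

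**Figure D5:**
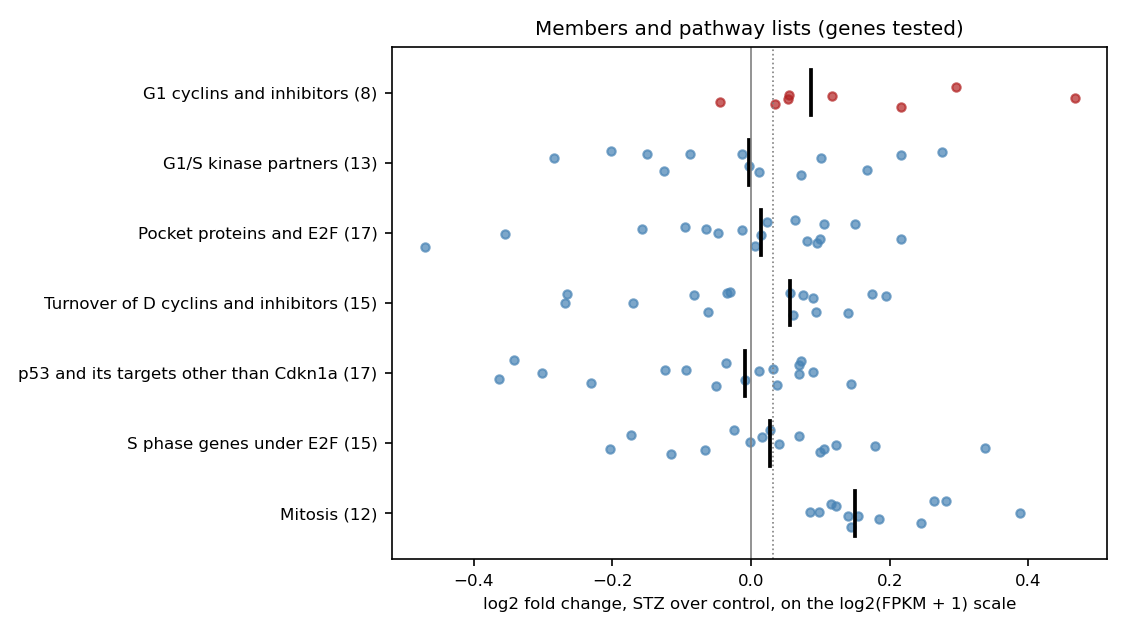
Log2 fold change, STZ over control on the log2(FPKM + 1) scale, of each gene tested (points) among the G1 cyclins and inhibitors and in 6 pathway lists, with the number tested in brackets, the list median as a black bar and the median of all genes as a dotted line. Mitosis genes all lie above 0, with a median of 0.15, and the other lists spread over both sides.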

How the data were processed

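The members, gene lists and tests were chosen with earlier results of these data known. Heart RNA libraries were made with a SMARTER kit and the genome build was GRCm38 (mm10), per the labels' protocols and the submitters' processing notes; for the aligner, the counter and strandedness, the sources used here give nothing. The authors deposited 1 table of FPKM-type values for 6 samples, a unit read from its abbreviation and values. Multiplied by gene length, the values of a library came in steps of 1 read (100% within 0.01 reads), so whole reads could be recovered. The authors' scale was 0.985 to 1.03 times the recovered reads in 5 libraries and 1.21 times in control 2, so the FPKM of control 2 are lower than its reads alone would give.

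Groups came from sample titles and treatments. The test was limma 3.58.1 (R 4.3.3) on log2(FPKM + 1) with its trend option for the variance, and BH adjustment over the 12431 genes that reached 1 FPKM in 3 or more samples; this scale understates changes of low genes. It was also run on simulated counts that held no outlying library like control 2 and larger changes than those of the members. That run therefore does not show how well the test works on these data. Shares, sums and single members had exact permutation tests over 20 assignments. Named genes were the 10 members, 7 fixed genes, the 3 genes of lowest p in each list and the 2 genes most correlated with each tested member. All library pairs differed by more than sampling noise (chi-square per degree of freedom at least 13.2). All 10 members had the same position in GENCODE M21. Since strandedness is not stated, reads from opposite strands may be mixed: Ccnd1, Ccnd2, Ccnd3, Cdk6 and Cdkn1a overlap a gene on the other strand, the most abundant being Bysl at the end of Ccnd3, at 6.95 to 9.42 FPKM. Promoter windows came from RefSeq (GRCm38.p6), which matched 8 of the 10 members, with no entry for Ccnd1 and Ccnd2. Figures used matplotlib 3.10.9.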

Additional observations from a re-analysis of the deposited data

How the results depend on the processing

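No member passed the threshold under any of 15 alternatives (limma, and voom on the recovered reads, which was chosen after seeing the data); a member had an unadjusted p under 0.05 in the fits with array weights (Cdkn1a), without control 1 (Ccnd2) and without control 3 (Cdkn1a). Ccnd1, Ccnd2 and Cdkn1a kept a positive fold change in all 15. Ccnd3 turned positive with array weights (0.12), without control 2 (0.17) and without STZ 3 (0.04), over a range of -0.22 to 0.17 without 1 library. Cdk6 turned to -0.020 without control 1 (range -0.020 to 0.32), and Cdkn2d to -0.11 without control 1 and -0.09 without STZ 1 (range -0.11 to 0.13). Scaling to recovered read totals, which raises control 2, turned Cdkn1b to -0.011, Cdkn2c to -0.0093, Cdkn2d to -0.031 and the INK4 sum to -1.25 FPKM. Without 1 library the INK4 sum ran from -1.72 to 2.65 FPKM, the Ccnd1 share from -1.93 to 9.18 points and the Ccnd3 share from -11.8 to 1.34 points. Over all genes, 3 passed, 0 with the replicate block, 8 with array weights, and 2 to 5 without 1 library. The replicate numbers were not taken as pairs: the deviations of same-numbered libraries correlated at 0.02, -0.04 and 0.09, and 3 of 6 libraries correlated best with their own number. The edgeR test planned on recovered reads was not run, and voom on those reads took its place. Where the cause of a change is not stated, it was not tested. Depth limits Cdkn2a and Cdkn2b, with 23 and 51 reads in all 6 libraries.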
